A study of Bos taurus with 12 samples.

Results

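Peroxisome proliferator-activated receptors (PPAR), liver X receptors (LXR), retinoid X receptors (RXR), the oestrogen-related receptor ESRRA and the PGC-1 coactivators were followed in the mammary gland of lactating Holstein cows before and during feed restriction. The group held 10 genes chosen by symbol: PPARA, PPARD, PPARG, PPARGC1A, PPARGC1B, RXRA, RXRB, NR1H3 (LXR alpha), NR1H2 (LXR beta) and ESRRA. All non-control probes whose identifier on a one-colour Agilent bovine array mapped to one of these symbols were taken, which gave 19 of 43653 probes, for 9 genes of the 12787 that had a probe. No probe was matched to PPARGC1B. Of the 19 probes, 11 probes of 8 genes were bright enough to be tested, among 19403 tested probes of 7930 genes. The other 8 probes, among them the only probe of PPARA, were not well above background on all arrays of either group.

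The cows were multiparous and in midlactation, and their age in years is not given in the sources used here. In the CONT period, sampled on day 0, they ate a lactation diet ad libitum. In the REST period, sampled on day 6 of restriction, feed covered 50% of their net energy requirements for lactation (NEL). Each of 6 cows gave 1 mammary biopsy per period, and its 2 arrays lay on the same slide, so that every change within a cow was also a change within a slide.

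PPARs, LXRs and RXRs are ligand-activated transcription factors of the nuclear receptor family, and PPARs and LXRs bind DNA as heterodimers with an RXR. Fatty acids and their derivatives activate PPARs, whereas oxidised cholesterol derivatives activate LXRs. ESRRA resembles the oestrogen receptors but has no known natural hormone. It depends on coactivators such as PPARGC1A to switch on genes of mitochondrial energy production. In the ruminant mammary gland this network has been studied for the genes of milk fat synthesis, PPARG above all.

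All signals are log2 of the scanner's processed intensity minus the 75th percentile of the array, so a change of 1 is a doubling. REST was set against CONT within cows with limma, and a probe was called at a Benjamini-Hochberg adjusted p under 0.1, over all tested probes. By this rule 3 of the 11 tested probes of the group were called, and all 3 were higher in REST: both ESRRA probes and 1 of the NR1H3 probes. That is 27.3% of the tested probes, against 16.0% called among all tested probes, of which 7.22% were higher and 8.78% lower. Without the cow in the model, 2 probes of the group were called, against 4.31% of all tested probes. No probe of the group (0) was called when cow 1, 2 or 4 was left out, although 3 or 4 of them had an unadjusted limma p under 0.05, and 7 probes of 5 genes were called without cow 5. The median change over the 11 probes was 0.09, and over all tested probes it was 0.0018; 7 of the 11 were above 0 and 4 below. These shares are a description, since 3 of the 11 probes (the dimmer ESRRA probe, the second NR1H3 probe and RXRB) met the brightness rule only through REST, where their means were higher. When the fit was kept to probes well above background on all 12 arrays, 8 probes of the group remained and 3 were called, with the brighter ESRRA probe (adjusted p = 0.0408) and NR1H3 (adjusted p = 0.0397) higher and PPARGC1A lower.

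Slide 3, with cows 5 and 6, was dimmer than the other slides. The 75th percentile of the intensity was between 73.2 and 117 units on its 4 arrays and between 252 and 390.0 on the other arrays, and 41.9 to 48.0% of spots were well above background there, against 61.8 to 67.9%. In 6 of 6 cows the REST array had the higher percentile before it was subtracted. For the receptors, values are given by cow or by slide where slide 3 stood apart.

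ESRRA, the receptor that drives oxidative metabolism genes together with PGC-1 coactivators, rose in REST on its brighter probe. On that probe, A_73_102434, the CONT signal ran from 1.19 through a median of 1.70 to 1.94, and the REST signal from 1.60 through 1.996 to 2.57. The groups overlapped, but the signal was higher in REST in 6 of 6 cows. The mean change was 0.42 (SE 0.11, 95% interval 0.17 to 0.66, adjusted p = 0.0497), or 1.33-fold. This call was lost without the cow in the model (adjusted p = 0.257) and with the slide as the block in its place (adjusted p = 0.108). Cow 1 showed the largest change on this probe, 0.84, and cows 5 and 6 the smallest, 0.22 and 0.05.

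The dimmer ESRRA probe, A_73_P061501, cleared the background on 5 CONT arrays and all 6 REST arrays. It was thus tested only because of REST, the group in which it was higher, and its call does not count as support for the brighter probe. Its signal ran from -2.32 through -1.73 to -1.64 in CONT and from -1.72 through -1.30 to -1.27 in REST. All 6 cows were higher in REST, by 0.49 on average (SE 0.12, 95% interval 0.21 to 0.77, adjusted p = 0.0454), or 1.41-fold. The probes did not rank the cows alike: cow 6, which changed least on the brighter probe, changed most on the dimmer one, by 0.95. Cow 5 changed by 0.03 on it. Both calls ended when cow 1, cow 2 or cow 4 was left out, with changes of 0.33 to 0.52 and adjusted p of 0.1004 to 0.134, in fits that also called fewer probes over the whole array. The dimmer probe's change fell to 0.11 (adjusted p = 0.454) under another background correction, normexp with the same shift, while the brighter probe's was 0.50 (adjusted p = 0.00873).

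NR1H3, the LXR that senses oxysterols in liver, macrophages and other lipid-handling cells, rose on the brightest of its 3 probes. On A_73_115720 the CONT signal ran from 0.16 through 0.40 to 0.67 and the REST signal from 0.67 through 0.80 to 0.89. The groups did not overlap, but only by 0.00021 units, and the highest CONT value and the lowest REST value were both from cow 5. Over all tested probes, 2.25% had groups that did not overlap. The mean change was 0.40 (SE 0.10, 95% interval 0.17 to 0.64, adjusted p = 0.0482), or 1.32-fold. Without the cow in the model the adjusted p was 0.0635.

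By cow, the change of this NR1H3 probe was 0.71, 0.37, 0.34 and 0.63 in cows 1 to 4, and 0.00 and 0.37 in cows 5 and 6. The call ended without cow 1, cow 2 or cow 4, at changes of 0.34, 0.41 and 0.36 (adjusted p = 0.119, 0.122 and 0.136). The second probe, A_73_P431411, was well above background on 5 CONT and 6 REST arrays. It gave 0.31 (SE 0.15, adjusted p = 0.225), with 5 of 6 cows higher. Cow 5, at -0.57, stood against the other 5 cows, which lay between 0.33 and 0.69; without it the change was 0.49 (adjusted p = 0.0258). Under normexp with the percentile shift it was 0.0069 (adjusted p = 0.970). This probe, too, was tested only because of REST. The third probe, A_73_P373591, was well above background on 1 array of each group and gave no usable level.

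NR1H2, the second LXR, which is expressed in most tissues, was not called. On its tested probe, A_73_P043671, the signal ran from 2.74 through 2.90 to 3.14 in CONT and from 2.80 through 2.99 to 3.30 in REST. The groups overlapped almost wholly, and the change was 0.08 (SE 0.09, 95% interval -0.12 to 0.28, adjusted p = 0.605). Its other probes, A_73_P476563 and A_73_P313341, were well above background on 8 and 7 of the 12 arrays and were not tested. Their values changed by 0.17 on average, with 4 of 6 cows higher, and by 0.53, with 6 of 6 cows higher by 0.08 to 1.19. In a fit with no filter on dim probes the latter had an adjusted p of 0.198.

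**Figure D1:**
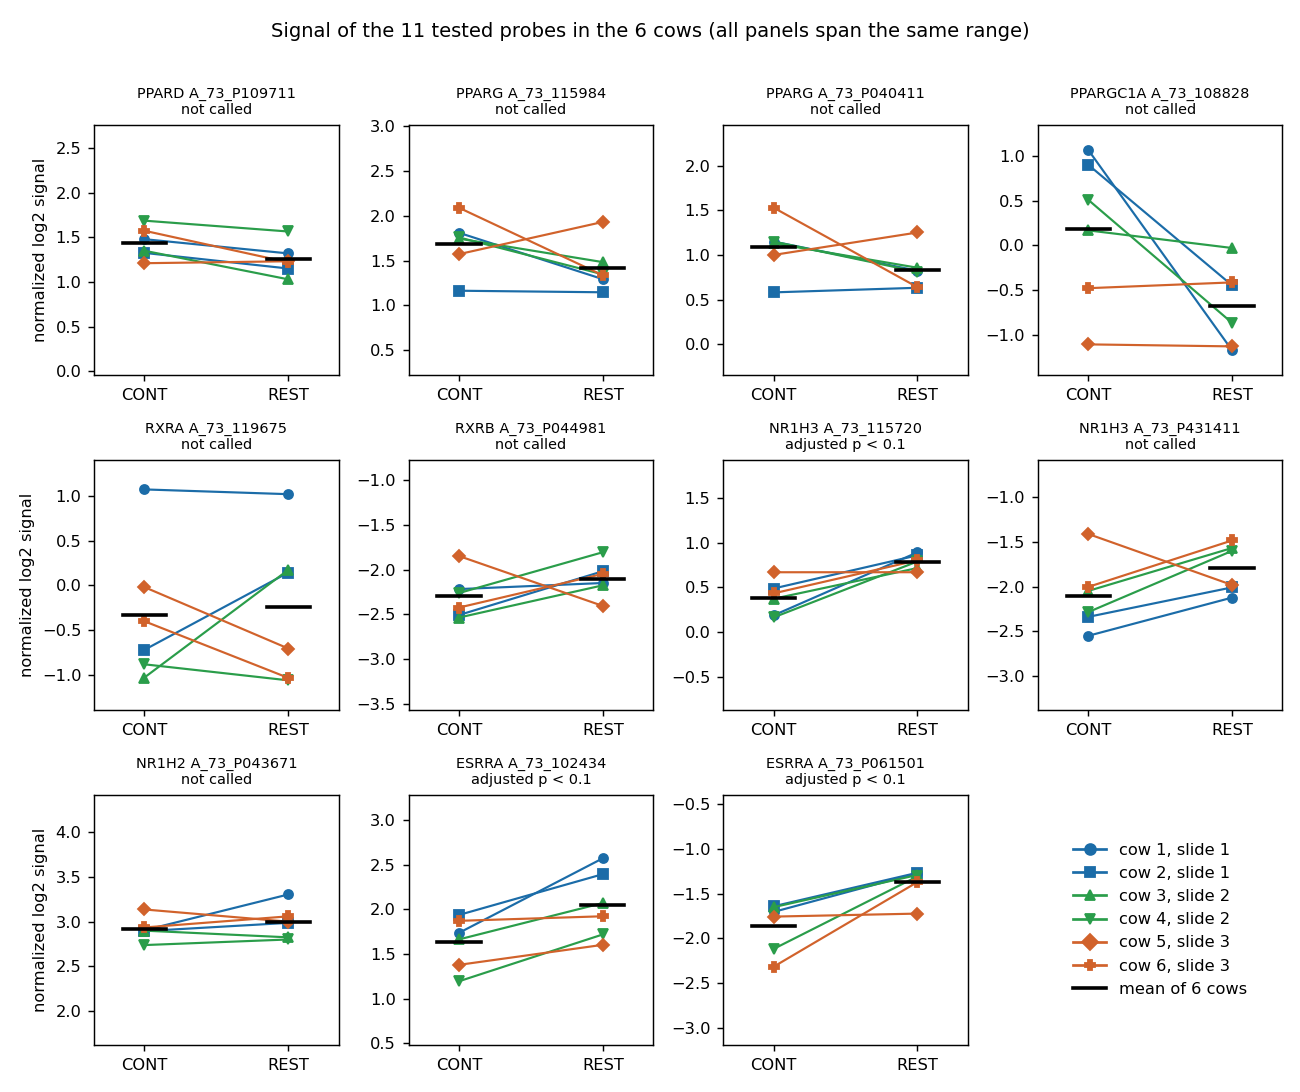
Normalized log2 signal of the 11 tested probes in CONT and REST, with 1 line per cow, colours for the 3 slides and black bars for the means of 6 cows. Every cow's line rises on both ESRRA probes, whereas the PPARGC1A lines of cows 1, 2 and 4 run steeply downward and those of cows 5 and 6 are nearly flat.

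PPARGC1A (PGC-1 alpha), the coactivator that links PPARs and ESRRA to mitochondrial gene expression and answers to fasting and cold in other tissues, had the widest spread of changes between cows among the tested probes. On A_73_108828, well above background on all 12 arrays, the CONT signal ran from -1.11 through 0.34 to 1.07 and the REST signal from -1.17 through -0.66 to -0.03. Its changes in cows 1 to 6 were -2.24, -1.35, -0.20, -1.38, -0.02 and 0.06. The highest CONT values came from cows 1 and 2, and the lowest from cows 5 and 6, whose CONT signals lay within the range of the REST signals of the other cows.

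The mean change of PPARGC1A was -0.85 (SE 0.30, 95% interval -1.53 to -0.18), with 5 of 6 cows lower, and it missed the threshold at an adjusted p of 0.108. It passed without cow 5 (-1.02, adjusted p = 0.0870), without cow 6 (-1.04, adjusted p = 0.0976) and on slides 1 and 2 alone (-1.29, adjusted p = 0.0704), and it was -0.58 without cow 1 (adjusted p = 0.214). Several other settings also moved it past the threshold: the median in place of the 75th percentile (adjusted p = 0.0972), normexp with the percentile shift (-0.74, adjusted p = 0.0501) or with quantile normalization (-0.66, adjusted p = 0.0655), the cow as a random block (adjusted p = 0.0654), and a stricter filter that kept probes well above background on each of the 12 arrays (adjusted p = 0.0932). In all, it passed in 8 of 21 settings, the main fit included. It did not pass without the cow in the model (adjusted p = 0.220), with the slide as the block (adjusted p = 0.118) or with no filter on dim probes (adjusted p = 0.226).

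A second PPARGC1A probe, A_73_P100476, was well above background on both arrays of cows 1 to 4, where it changed by -1.56, -1.47, -0.33 and -1.57. On slide 3 it was well above background only on the REST array of cow 6, so it was not tested over the 12 arrays. Fitted on slides 1 and 2 alone, a choice made after slide 3 had been seen to be dimmer, its change was -1.23 (SE 0.22, adjusted p = 0.0509). In cows 5 and 6, with 1 of 4 arrays well above background, it gave 0.97 and 0.85. Within cows 1 to 4 both probes gave the smallest change to cow 3. The third probe, A_73_100612, was well above background on 0 of 12 arrays.

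PPARG, the adipogenic PPAR and the isoform most often tied to milk fat genes in ruminants, had values lower on average in REST on both probes, and neither passed. On A_73_115984 the CONT signal ran from 1.16 through 1.75 to 2.09 and the REST signal from 1.14 through 1.34 to 1.93. The groups overlapped, with a change of -0.27 (SE 0.14, 95% interval -0.58 to 0.05, adjusted p = 0.248) and 5 of 6 cows lower. On A_73_P040411 the change was -0.25 (SE 0.14, 95% interval -0.57 to 0.06, adjusted p = 0.268), with 4 of 6 cows lower.

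Both PPARG probes ranked the cows at the extremes alike. Cow 6 had the lowest change on each (-0.76 and -0.89), and cow 5, on the same slide, the highest (0.36 and 0.25). Without cow 5 the first probe gave -0.39 (adjusted p = 0.0809) and the second -0.36 (adjusted p = 0.132). Without cow 6 they gave -0.17 and -0.13 (adjusted p = 0.486 and 0.538), and under normexp with the percentile shift -0.16 and -0.15 (adjusted p = 0.427 and 0.375).

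PPARD, the broadly expressed PPAR that acts on fatty acid oxidation in muscle and other tissues, was not called. Its only tested probe, A_73_P109711, ran from 1.21 through 1.41 to 1.69 in CONT and from 1.03 through 1.23 to 1.56 in REST. The change was -0.18 (SE 0.08, 95% interval -0.37 to -0.0023, adjusted p = 0.177), with 5 of 6 cows lower and cow 5 at 0.02. On slides 1, 2 and 3 it was -0.17, -0.22 and -0.17, and under normexp with the percentile shift the change was -0.07 (adjusted p = 0.550). Of the other PPARD probes, A_73_115880 was well above background on 3 CONT and 3 REST arrays and A_73_119402 on none (0 of 12).

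PPARA, the PPAR that commands fatty acid oxidation in fasted liver, was near the limit of detection on these arrays. Its only probe, A_73_106485, was well above background on all 8 arrays of slides 1 and 2 and on none (0 of 4) of slide 3, and was not tested over the 12 arrays. In cows 1 to 4 its changes were -0.88, 0.03, -0.31 and -0.48. Fitted on these cows alone, the change was -0.41 (SE 0.16, adjusted p = 0.175).

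RXRA and RXRB encode the shared partners of the PPARs and LXRs, and neither was called. RXRA (A_73_119675) differed more between cows than between periods: it ran from -1.03 through -0.56 to 1.07 in CONT and from -1.06 through -0.28 to 1.02 in REST, and cow 1 was the highest in both. Its changes lay between -0.69 in cow 5 and 1.21 in cow 3, with a mean of 0.09 (SE 0.25, 95% interval -0.48 to 0.65, adjusted p = 0.852). This mean changed sign without cow 2 (-0.07) or cow 3 (-0.14). Slides 1 and 2 gave 0.41 and 0.51, and slide 3 gave -0.66.

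RXRB (A_73_P044981), well above background on 5 CONT and 6 REST arrays and so tested only because of REST, ran from -2.53 through -2.34 to -1.85 in CONT and from -2.40 through -2.10 to -1.80 in REST. Its change was 0.20 (SE 0.14, 95% interval -0.12 to 0.52, adjusted p = 0.389), with 5 of 6 cows higher. Cow 5 stood apart at -0.56, and without it the change was 0.35 (adjusted p = 0.0647). Under normexp with the percentile shift it was -0.04 (adjusted p = 0.817).

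**Figure D2:**
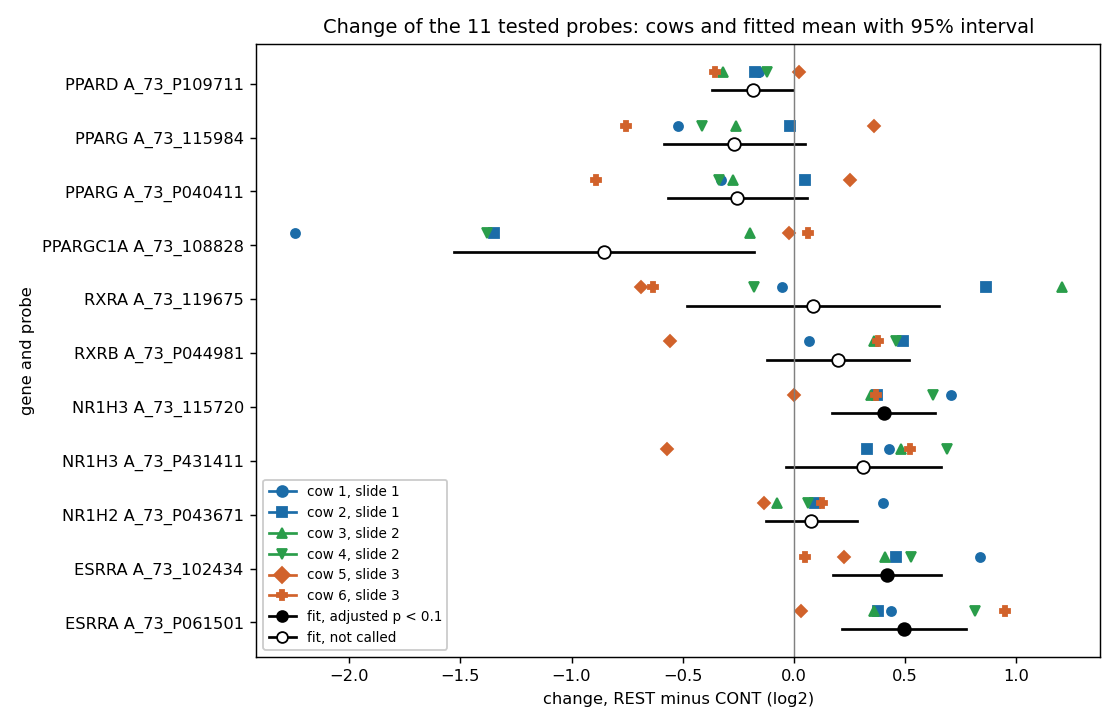
Change from CONT to REST (log2) of the 11 tested probes, with 1 point per cow coloured by slide above the fitted mean with its 95% interval (black circle, filled where the adjusted p is under 0.1). The 3 filled circles, 2 for ESRRA and 1 for NR1H3, lie between 0.40 and 0.49, and cow 5 has the lowest change on both NR1H3 probes and on RXRB.

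Related genes were then compared with each other within cows, by the change of one minus that of the other, for the 3 pairs in which both had a tested probe. The change of NR1H3 was above that of NR1H2 in 6 of 6 cows, by 0.32 ± 0.15 (SD, n = 6), with differences between 0.14 and 0.56 (p = 0.03125 by an exact two-sided sign-flip test, whose smallest p with 6 cows this is; 0.09375 when adjusted over the 3 pairs). With either normexp setting the difference was 0.19 or 0.21 (adjusted p = 0.281 and 0.188), with the mean over all tested probes of a gene it was 0.28 (adjusted p = 0.188), and with 5 cows the test cannot pass. PPARD and PPARG differed by 0.08 ± 0.31 (SD, n = 6; exact p = 0.53125, adjusted p = 0.719). RXRA and RXRB differed by -0.11 ± 0.67 (SD, n = 6; exact p = 0.71875, adjusted p = 0.719). The pairs took each gene by its brightest tested probe, so the dim NR1H2 probe with a mean change of 0.53 did not enter. For the latter 2 pairs the spread between cows was wider than the difference itself.

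The lower the change of PPARGC1A in a cow, the higher was that of the brighter ESRRA probe. Over the 6 cows the 2 changes had a Pearson correlation of -0.92 (exact permutation test, two-sided, p = 0.00139, the smallest that 6 cows allow) and a Spearman rho of -1 (exact permutation p = 0.00278). Of the 28 relations among the 8 genes this was the only one to pass after adjustment, at p = 0.0389 for r and 0.0778 for rho. Without cows 1 and 6, the farthest from the median of the ESRRA change, r was -0.84. The 2 cows of slide 3 had the 2 smallest changes of both genes, and over cows 1 to 4 r was -0.87; a slide held 2 cows, too few for a value of its own. The relation was not seen with the dimmer ESRRA probe (r = -0.05, exact permutation p = 0.899), and under normexp with the percentile shift it was -0.75 (exact permutation p = 0.0806).

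**Figure D3:**
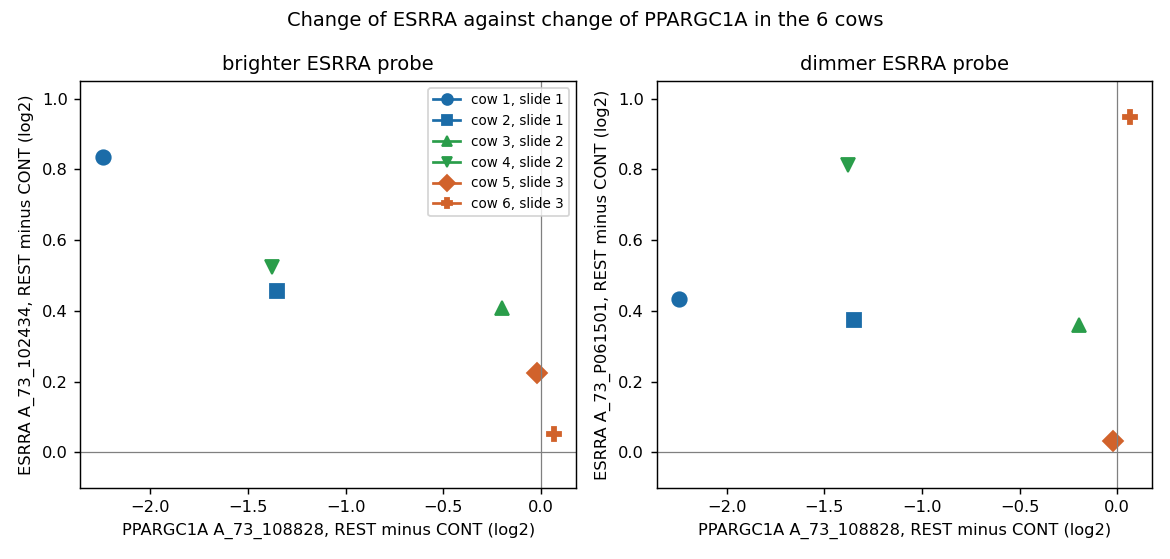
Change from CONT to REST (log2) of the brighter (left) and dimmer (right) ESRRA probe against that of PPARGC1A probe A_73_108828, with 1 point per cow, coloured by slide. On the left the points fall from cow 1 (-2.24, 0.84) to cow 6 (0.06, 0.05), while on the right cow 6 has the highest ESRRA change, 0.95.

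Gene lists written for these receptors' known targets, coregulators and relatives held 164 genes, of which 99 could be tested, each by its probe of highest signal. Of these 37 were called, 9 higher and 28 lower, or 37.4%, against 16.2% of all tested genes (6.94% higher and 9.27% lower). Their median change was -0.12, that of all tested genes -0.0090. Without cow 1, 2, 4 or 6 the number called was 18, 13, 16 or 24, and without the cow in the model 14. The lists were chosen with results of these arrays known, so these counts describe the pathways and are no independent evidence about them.

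Among PPAR targets of fatty acid oxidation and fasting, 5 of 19 tested genes rose and 1 fell, with a median change of 0.17. The number that rose was 3 without the cow in the model, 7 under quantile normalization and 9 under normexp with the percentile shift, with 1 lower in each. CPT1A, the enzyme that admits long-chain fatty acids to mitochondria, rose by 1.69 (SE 0.11, adjusted p = 0.000863) in 6 of 6 cows, from a CONT signal well above background on 4 of 6 arrays. It was therefore tested only because of REST. Its change was 0.72 under normexp with the percentile shift and 0.81 under normexp with quantile normalization (adjusted p = 0.0115 and 0.00133). SLC25A20, the carnitine-acylcarnitine carrier of the next step, rose by 0.87 (SE 0.10, adjusted p = 0.00474), and ANGPTL4, a secreted inhibitor of lipoprotein lipase, by 1.55 (SE 0.39, adjusted p = 0.0451) in 5 of 6 cows. TXNIP, which restrains glucose uptake, rose by 0.82 (SE 0.26, adjusted p = 0.0872), a call lost with the slide as the block (adjusted p = 0.111). FADS2, a fatty acid desaturase, fell by 0.62, and by 0.36 under normexp with quantile normalization. PDK4, the kinase that shuts off pyruvate oxidation in fasting, gave 1.01 (SE 0.42, adjusted p = 0.161), with 4 of 6 cows higher, and 1 of its 6 tested probes was called. Both cows in which PDK4 was lower, cows 5 and 6 (-0.46 and -0.68), were on slide 3. The PDK4 call was made in 5 of 21 settings: without cow 5 (1.30, adjusted p = 0.0948), without cow 6 (1.345, adjusted p = 0.0945), on slides 1 and 2 alone (1.80, adjusted p = 0.0366), with the cow as a random block (adjusted p = 0.0966) and under normexp with the percentile shift (adjusted p = 0.0847). It was not made without the cow in the model (adjusted p = 0.248), with the slide as the block (adjusted p = 0.195) or under quantile normalization (adjusted p = 0.145). ANGPTL4 and TXNIP also changed least on slide 3: on slides 1, 2 and 3 ANGPTL4 gave 2.46, 1.95 and 0.25, and TXNIP 1.57, 0.81 and 0.10.

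The list of PPARG targets of lipid uptake and storage went the other way: 10 of 15 tested genes fell and 0 rose, with a median change of -0.35. This holds for the list as it was drawn up. ANGPTL4, which rose, had been placed among the PPAR targets of oxidation and fasting. LPIN1, a phosphatidate phosphatase that also acts as a coactivator of PGC-1 alpha, fell by 1.88 (SE 0.20, adjusted p = 0.00465), and by 1.23 or 1.17 with the normexp settings. LPL, which frees fatty acids from blood lipoproteins, fell by 1.102 (SE 0.16, adjusted p = 0.00885), and the fatty acid-binding protein FABP3 by 0.73 (SE 0.09, adjusted p = 0.00708). The desaturase SCD fell by 0.43 (SE 0.09, adjusted p = 0.0260) on its brightest probe, and all 7 of its tested probes were called lower. On the brightest probe the call was lost without the cow in the model (adjusted p = 0.111), under quantile normalization (-0.24, adjusted p = 0.139) and under both normexp settings (-0.28 and -0.25, adjusted p = 0.1096 and 0.1009). The acyl-CoA synthetase ACSL1 fell by 0.38, a call made in 9 of 21 settings. It was lost with the slide as the block (adjusted p = 0.208) and with the median shift (adjusted p = 0.102). The fatty acid transporter CD36 gave -0.15 (adjusted p = 0.427), with 3 of 6 cows lower. Without the cow in the model 3 genes of this list fell, and under normexp with the percentile shift 5 did.

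LXR targets were split, with 2 of 11 tested genes higher, 3 lower and a median of -0.09, which was 0.01 under normexp with the percentile shift. APOE, a lipoprotein component that carries cholesterol out of cells, rose by 0.71 (SE 0.10, adjusted p = 0.00776) in 6 of 6 cows. ABCG2, a membrane transporter of milk-secreting cells, fell by 1.32 (SE 0.26, adjusted p = 0.0239), with -2.14, -1.26 and -0.57 on slides 1 to 3. ACACA, the first enzyme of fatty acid synthesis, fell by 0.39, and SCD fell as above. The ACACA call was made in 12 of 21 settings, with changes from -0.74 to -0.25 over them. It was lost with the cow as a random block (adjusted p = 0.115). SREBF1, the lipogenic transcription factor, gave -0.09 (adjusted p = 0.771). The cholesterol exporters ABCA1 and ABCG1 were not bright enough to be tested. NR1H3 rose beside LXR targets of both directions.

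ERR alpha and PGC-1 targets, largely enzymes of the citric acid cycle and respiratory chain, had 13 of 30 tested genes that fell, 1 that rose and 16 that were not called, with a median change of -0.21. SDHA, a subunit of succinate dehydrogenase, fell by 0.58 (SE 0.10, adjusted p = 0.0168), ETFA, an electron carrier of fatty acid oxidation, by 0.45, NDUFV1, of complex I, by 0.44, and OGDH, of the citric acid cycle, by 0.42. MAOB, an amine oxidase of the outer mitochondrial membrane, rose by 0.97 (SE 0.28, adjusted p = 0.0682). It cleared the background on 4 CONT arrays and 6 REST arrays, so that it, too, was tested only because of REST. The MAOB call was lost without the cow in the model (adjusted p = 0.256), with the slide as the block (adjusted p = 0.201) and under normexp with the percentile shift (0.22, adjusted p = 0.324). CYCS, cytochrome c, gave -0.18 (adjusted p = 0.600). Without the cow in the model 4 genes of this list fell, and under normexp with the percentile shift 5 did. These falls stood beside a higher ESRRA signal and a lower mean, not called, of PPARGC1A.

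Coregulators and other nuclear receptors each had 14.3% of their tested genes called, near the 16.2% of all tested genes. Of 14 tested coregulators 2 fell, LPIN1 as above and the coactivator NCOA3 by 0.37 (SE 0.10, adjusted p = 0.0551), with a median over the list of 0.02. The corepressor NCOR1 and the deacetylase SIRT1 gave 0.05 each (adjusted p = 0.700 and 0.852), and 1 of 3 tested SIRT1 probes was called. Of 14 other nuclear receptors, NR4A2, an immediate early receptor without a ligand, rose by 0.72 (SE 0.16, adjusted p = 0.0355) and RORA fell by 0.57 (SE 0.13, adjusted p = 0.0367); the median was 0.01.

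Of the 22 called genes that the naming rule selects from these lists, 12 passed in each of the 6 fits that left out 1 cow. ACACA, ANGPTL4, NCOA3 and OGDH were lost without cow 1, 2 or 4, MAOB and TXNIP without cow 1, 2, 4 or 6, ETFA and NR4A2 without cow 2, and ACSL1 without any 1 cow but cow 1. The highest adjusted p of these genes in such fits was 0.226, for TXNIP. Besides SCD and MAOB, the calls of ACACA, ACSL1, ETFA, NR4A2, RORA and TXNIP were lost without the cow in the model, at adjusted p of 0.106 to 0.402, and those of ACACA, ACSL1 and NCOA3 under normexp with the percentile shift, at 0.147 to 0.214.

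**Figure D4:**
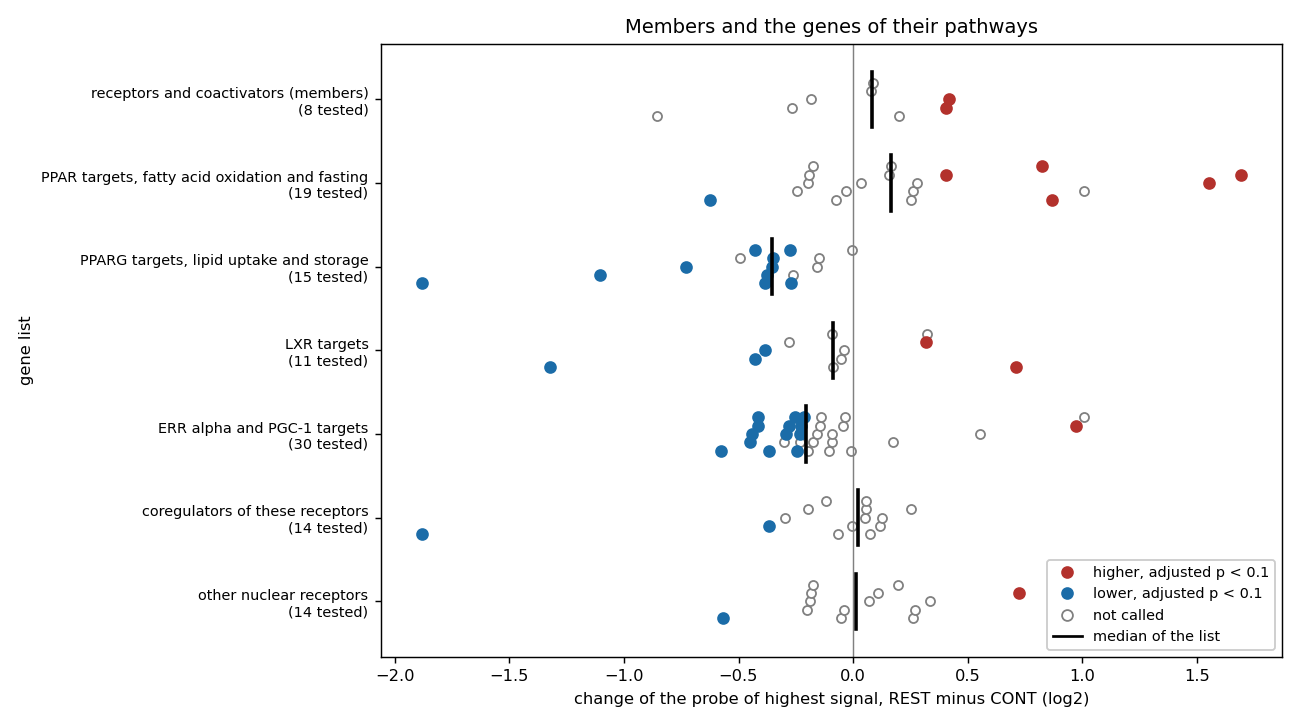
Change from CONT to REST (log2) of each tested gene by its probe of highest signal, for the 8 tested members and 6 lists of their pathways, with red for higher and blue for lower genes at an adjusted p under 0.1, open circles for the rest and a black bar for the median. The PPARG targets lie at or left of 0 with a median of -0.35, and the median of the PPAR targets of oxidation lies at 0.17.

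As a description, the genes whose signals followed those of the called members most closely over the 12 arrays, each taken as the deviation from the mean of its cow, were ANKS3, DLG5 and MYO9B for ESRRA (r = 0.99, 0.99 and 0.99) and ASRGL1, CHMP4B and ABCD3 for NR1H3 (r = 0.99, 0.98 and 0.98). These were the highest among 7928 genes compared, and the arrays share their periods and slides. The 2 deviations of a cow are equal and opposite, so each r rests on 6 within-cow changes and not on 12 separate values. Since the mean change was not taken out, 2 genes that shift alike in all cows reach a high r.

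Biopsies hold several cell types, and in such bulk samples fewer cells of a type and less RNA per cell cannot be told apart. Of the luminal epithelial markers, 3 of 9 tested (KRT8, KRT18 and KRT7) rose and 1 (CSN1S1) fell, and all 9 were well above background on 12 arrays. For CSN1S1, 1 of its 6 tested probes was called. The counts of called markers here and below stand beside 16.2% called among all tested genes. Their summed level, the log2 of the sum of normalized signals, was 11.25 to 11.59 in CONT and 11.09 to 11.40 in REST, and lower in REST in 6 of 6 cows. This sum was mostly the milk genes LALBA, CSN1S1 and BTN1A1, with mean CONT signals of 10.001, 9.79 and 9.11, while the median change of the 9 markers was 0.12.

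PPARG and NR1H3 are well known in adipocytes and macrophages. Of 12 adipocyte markers 5 could be tested, of which CFD rose and FABP4 fell; PLIN1 and AQP7 were well above background on 0 of 12 arrays. Their summed level was 7.61 to 8.10 in CONT and 7.47 to 7.77 in REST, lower in 6 of 6 cows. This sum was mostly FABP4, also a PPARG target above, whose mean CONT signal was 7.29, against 5.56 or less for the others. The other 4 tested markers had values higher on average in REST, and the median change of the 5 was 0.22. Of 12 macrophage and leukocyte markers 10 were tested, and LAPTM5 and CD3E rose. Their summed level was 4.01 to 4.47 in CONT and 4.03 to 4.73 in REST, higher in 4 of 6 cows. Endothelial markers had 2 of 9 higher (VWF and CLDN5), and a summed level of 4.98 to 5.57 in CONT and 5.44 to 5.93 in REST, higher in 6 of 6 cows. Fibroblast markers had 0 of 9 called, with 5.32 to 6.19 and 4.98 to 6.42, and myoepithelial markers 1 of 9 higher and 2 lower, with 6.97 to 7.88 and 6.86 to 7.80. Skeletal muscle markers had 1 of 3 lower, with 2.26 to 2.71 and 2.23 to 2.94, and MYH1 and TNNT1 were well above background on 0 arrays. The part of these cell types in the changes of the receptors was not tested.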

How the data were processed

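Mammary RNA of 6 cows in CONT and REST was hybridised by the authors to 12 one-colour (Cy3) arrays, 4 to a slide. The cows are those of the labels. The series description counts 5. The study's methods say that 6 Holstein cows were enrolled, that 1 was left out for mastitis and that arrays were run in Holstein cows only. If the 6 labelled cows are the 6 enrolled, the cow with mastitis is among those analysed here. Which animal it was is not given in the sources used here, so each cow was also left out. The deposited files give, per the file headers, the background-subtracted processed signal as an intensity on a linear scale, from Agilent Feature Extraction 11.0.1.1, with no scaling between arrays; the deposited series table held the same intensity values in 12 of 12 columns. Log2 values are relative to the 75th percentile of each array, computed here from the deposited intensities. Symbols came from RefSeq identifiers (27131 of 43653 probes matched). Since the grid annotation refers to another assembly (UMD 3.1) than the gene table (ARS-UCD2.0), no positions are given.

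Spots flagged as outliers (1 to 13 per array) were left out and repeat spots averaged. A probe was tested if well above background on every array of at least 1 group. The fit was limma 3.58.1 (R 4.3.3; lmFit and eBayes) with the cow as a block, two-sided, Benjamini-Hochberg threshold 0.1. The labels tie both arrays of a cow to 1 animal, and deviations of same-cow arrays from their group means correlated at 0.36 to 0.57, those of different cows at -0.33 to 0.13. P-values measure the spread between these 6 cows, and those of limma also draw on variances pooled over all tested probes. The number of arrays limits precision. The fit was tested on simulated data. All probes of the 10 genes are named, and from each list at most 5 called genes by size of change and at most 2 well-known genes that were not called; 1 selected gene is counted but not reported here, and single genes outside this rule (markers, untested genes) were named after their values were seen. The genes and lists were chosen with earlier results of these data known. Python 3.11.15 with pandas 2.3.3 and matplotlib 3.10.9 made the summaries and plots.

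Alternatives were no block, random cow block, slide block, median shift, quantile normalization, normexp (offset 50, on the median spot and background signals), no filter, a stricter filter, flagged spots kept, eBayes with trend and robust, a paired test without moderation, each cow left out and, chosen after seeing the data, slides 1 and 2 only.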

Additional observations from a re-analysis of the deposited data

Results flagged for a closer look

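In 33 groups of 6 values (the CONT values, REST values and changes of the 11 tested probes), 3 had an extreme cow by Dixon's ratio (the gap to the nearest cow over the range) above its critical value; chance flags about 1 in 20, or 1.65 here. For PPARG (A_73_P040411) the highest REST signal, 1.25 in cow 5, had a ratio of 0.638. For NR1H3 (A_73_P431411) the lowest change, -0.57 in cow 5, had a ratio of 0.717. For ESRRA (A_73_P061501) the lowest REST signal, -1.72 in cow 5, had a ratio of 0.773. All 3 were from cow 5, on the dimmer slide 3; the part of the slide was not tested.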

How the results depend on the processing

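Of all probes, 3104 were called with the cow as a block. The count was 836 with no block, 1898 with the slide as a block, 388 with no filter on dim probes and 1852 in the paired test without moderation, and 1045 to 3252 when 1 cow was left out. For the receptors, 3 probes of 2 genes were called; with no filter and in the test without moderation none passed (0 probes of 0 genes), where 6 of 19 and 4 of 11 probes had an unadjusted p under 0.05 by limma and by that test. With 1 cow left out the number was 0 to 7 probes and 0 to 5 genes: 0 without cow 1, 2 or 4, and 7 probes of 5 genes without cow 5. On slides 1 and 2 alone 6 probes passed, and with the well-above-background rule on all arrays 3 genes did; median shift, normexp with the percentile shift, normexp with quantile normalization and a random cow block gave 3 genes. The 37 called pathway genes became 14 with no block, 6 with no filter, 22 without moderation, and 13 to 38 with 1 cow left out. The 1 pair of paralogues that differed was 0 under both normexp settings, with the mean over probes and with any cow left out. Directions changed only in values that were not called. Under normexp with the percentile shift these were RXRB (-0.0388), SIRT1 (-0.0441) and the difference of RXRA and RXRB (0.113). With 1 cow left out, RXRA ran from -0.138 to 0.241, SREBF1 from -0.245 to 0.0292, SIRT1 from -0.0538 to 0.197 and the difference of RXRA and RXRB from -0.305 to 0.0665. Of the called probes, the share that was lower was 54.9%, and 46.0% under normexp with the percentile shift. The cause of these differences was not tested.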
